A study of Homo sapiens with 16 samples.

Results

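The comparison described here sets TPC1 cells given nutlin and GSK2830371 together against TPC1 cells given nutlin alone. TPC1 is a human papillary thyroid carcinoma line with wild type p53. Its libraries were chosen by treatment label, the 2 combination and the 2 nutlin libraries, which makes 4 of the 16 in the series. The rest of the series holds TPC1 cells given DMSO or GSK2830371 alone and the same 4 treatments in K1, another papillary thyroid carcinoma line, with 2 libraries per treatment and line. Nutlin was used at 10 µM and GSK2830371 at 25 µM, each for 24 h, and the untreated cells received 0.2% DMSO for 24 h. Both groups compared here carry nutlin, so they differ in GSK2830371 only, and the question is what the inhibitor of PPM1D adds where p53 is already active.

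Each library is stranded, polyadenylated RNA, and the values are unscaled numbers of reads per gene. The nutlin libraries hold 30789887 counts (replicate 1) and 65115167 counts (replicate 3), and the combination libraries hold 36878168 (replicate 1) and 62853375 (replicate 3). The TPC1 DMSO libraries hold 36896529 and 72453522 counts and the GSK2830371 libraries 31578138 and 76648552. TPC1 replicates are called 1 and 3 here, as the columns have them. The sample labels number them 1 and 2, so the libraries numbered 3 are known by treatment only. The study reports, for its experiments in general, that replicates were independent preparations, and the labels of these libraries do not address it.

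p53 is a transcription factor that is kept low by the ubiquitin ligase MDM2, and nutlin frees it by occupying the p53 pocket of MDM2. PPM1D, also known as WIP1, is a phosphatase that p53 itself induces and that removes activating phosphates from p53 and from the kinases of the DNA damage response, and GSK2830371 inhibits it. The integrated stress response is a separate program: phosphorylation of the translation factor eIF2alpha by one of several kinases slows translation in general while favouring that of ATF4, which then induces genes for amino acid import, amino acid synthesis and aminoacyl-tRNA charging, and further transcription factors such as CHOP.

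Adding GSK2830371 to nutlin raised genes of the integrated stress response, of amino acid supply and part of the p53 targets for growth arrest, and lowered genes of mitosis and sterol synthesis. *CHAC1*, which codes for an enzyme that degrades glutathione, rose 32.1-fold and *DDIT3*, the gene of CHOP, 13.2-fold. *CDH6*, a cadherin of cell contacts, fell by 4.73 on the log2 scale. A gene was called where its Benjamini-Hochberg adjusted p in the edgeR quasi-likelihood fit of the 8 TPC1 libraries was under 0.05 and its fold change over 1.5. Levels are printed in CPM, the reads of a gene relative to the TMM-scaled library size, while the filter for testing used the plain library size. Of 15273 genes with more than 0.1 CPM in at least 2 TPC1 libraries, 986 were called higher (6.46%) and 865 called lower (5.66%). These percentages are the background against which the members of each gene list are read below. The median log2 fold change over all genes tested was 0.01. Among the called genes, 460 of those higher and 296 of those lower changed more than 2-fold, and 91 and 63 changed more than 4-fold. The called-higher count fell to 655 without nutlin replicate 3, whose group is then a lone library assumed to vary like the others. Between the libraries of a treatment the variance over genes exceeded that of counting error (chi-square per degree of freedom). The ratio was 11.6 for nutlin, 39.2 for the combination, 19.3 for GSK2830371 alone and 48.3 for DMSO.

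**Figure D1:**
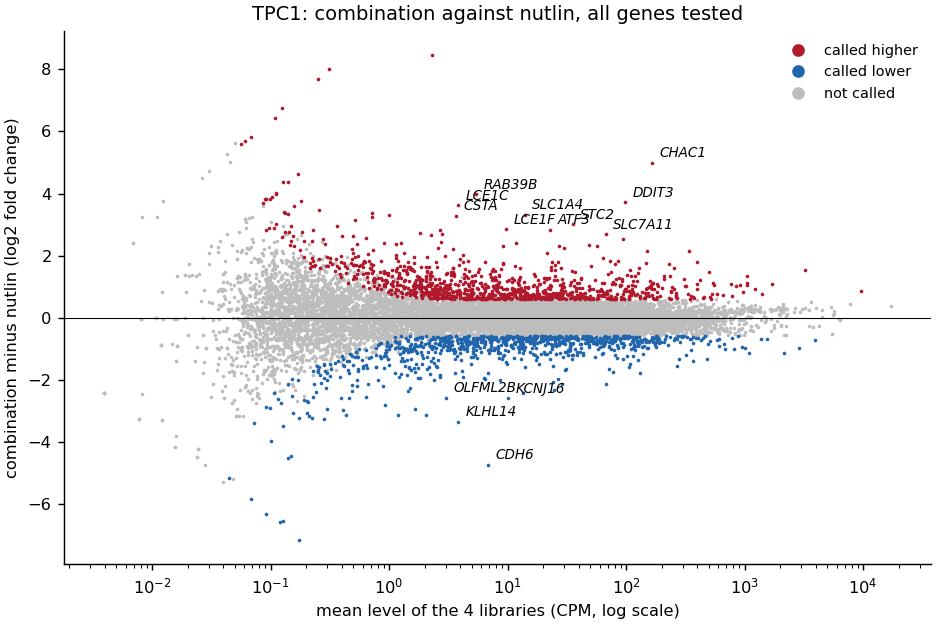
Log2 fold change of the combination over nutlin in TPC1 (vertical axis) against the mean level of the 4 libraries in CPM (horizontal axis, log scale), with 1 point for each of the 15273 genes tested. Red points are the 986 genes called higher and blue points the 865 called lower, and *CHAC1* and *DDIT3* stand above the other genes of their level while *CDH6* stands below.

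The labelled origin was checked against markers of thyroid and of other cell types. Of 7 thyroid markers, *TSHR* and *NKX2-1* had no read in any of the 4 libraries, while *PAX8*, a thyroid and kidney transcription factor, was at 459 and 457 CPM under nutlin and 335 and 291 CPM under the combination, a difference of −0.55 ± 0.0826 on the log2 scale that missed the fold threshold. *FOXE1*, another thyroid transcription factor, was at 27.5 and 25 CPM under nutlin and 22.7 and 23.7 CPM under the combination. The summed level of the 7 markers was 489 and 485 CPM under nutlin and 363 and 319 CPM under the combination, nearly all of it *PAX8*. Of 6 blood and immune markers, *PTPRC*, *CD3E* and *HBB* were at 0 in all 4 libraries, so a change in them was not tested. *CD68*, a lysosomal protein of macrophages and of many cultured lines, made up nearly the whole sum of 67.5 and 72.9 CPM under nutlin and 56.9 and 44.9 CPM under the combination. Of 4 endothelial markers *KDR* was at 0 in all 4 libraries, and the sum reached at most 0.332 CPM in combination replicate 1. Of 8 fibroblast markers *COL3A1* and *DCN* were at 0 in all 4 libraries, and *VIM*, an intermediate filament gene of mesenchymal and many carcinoma cells, gave most of the 2338 and 2575 CPM under nutlin and 1902 and 2176 CPM under the combination. The 6 epithelial markers summed to 596 and 647 CPM under nutlin and 426 and 499 CPM under the combination, led by *KRT8*. In such bulk libraries fewer cells of a type and less RNA per cell cannot be told apart.

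Of the wider lists for these types, thyroid identity had 1 of 9 tested genes called higher and 0 lower (median log2 −0.07), epithelial markers 0 of 10 in either direction (0.07), fibroblast and mesenchymal markers 0 higher and 3 lower of 10 (−0.37), blood and immune markers 0 of 3 (−0.47), and endothelial markers 1 higher of 5 (1.16). The thyroid gene was *TG*, the thyroglobulin precursor of thyroid hormone, at 2.31 and 2.42 CPM under nutlin and 5.09 and 3.66 CPM under the combination. Its call was lost without combination replicate 1 (log2 0.63), nutlin replicate 1 (0.84) or nutlin replicate 3 (0.91), and without combination replicate 1 another thyroid gene was called lower. The endothelial gene was *TEK*, an angiopoietin receptor at 0.463 and 0.702 CPM under nutlin and 1.24 and 1.46 CPM under the combination. No endothelial gene was called without combination replicate 3 (*TEK* log2 1.04), nutlin replicate 1 (0.95) or nutlin replicate 3 (1.55), or by DESeq2 with moderated fold changes on the 4 nutlin and combination libraries (0.70), called moderated DESeq2 below. The 3 mesenchymal genes were *LUM*, *COL1A1* and *PDGFRB*, the second of which lost its call in some fits, given with the matrix genes. *LUM*, a proteoglycan gene, fell by 1.37 ± 0.171 on the log2 scale from 3.5 and 3.98 CPM. Among epithelial markers 1 gene was called lower without combination replicate 3, and 1 was called in each direction with the replicate number as a block. In the blood list 1 gene was called lower without combination replicate 1 (*CD68*, log2 −0.64, against −0.47 with all libraries) and 1 higher with the block. As a reference, 0 of 14 housekeeping genes were called (median −0.05). *GAPDH* was at 6102 and 6583 CPM under nutlin and 5602 and 6681 CPM under the combination (log2 −0.05 ± 0.128). *PGK1*, another glycolytic gene of that list, was called lower without combination replicate 3 (log2 −0.63).

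Of the called genes whose combination mean reached 5 CPM and whose groups did not overlap, the 12 largest increases included genes that respond to stress. *CHAC1* (chr15:41245160-41248710 in GRCh37, forward strand) was at 10.3 and 9.69 CPM in the nutlin libraries and 299 and 340 CPM in the combination libraries. DMSO cells held 26.5 and 27.4 CPM of it and cells given GSK2830371 alone 84.7 and 89 CPM, so both combination libraries stood above all 6 others. The log2 fold change over nutlin was 5.00 ± 0.101 (standard error; Benjamini-Hochberg adjusted p = 4.5e-08, edgeR quasi-likelihood). *DDIT3* (chr12:57910371-57915520, reverse strand), whose product CHOP is a transcription factor of unresolved stress, was at 13.5 and 13.9 CPM under nutlin and 210 and 154 CPM under the combination. In DMSO cells it was at 4.08 and 4.75 CPM and with GSK2830371 alone at 13.2 and 12.4 CPM, so each drug by itself left it at a similar level. Its log2 fold change over nutlin was 3.72 ± 0.154 (Benjamini-Hochberg adjusted p = 2.2e-06, edgeR quasi-likelihood).

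Some of these genes were lower under nutlin than in DMSO cells, and the combination stood above both. *SLC1A4*, a transporter of alanine, serine and cysteine, was at 17.2 and 15.4 CPM in DMSO cells, 2.74 and 2.4 CPM under nutlin and 26.5 and 24.2 CPM under the combination. Its rise over nutlin was 9.96-fold (log2 3.32 ± 0.113; Benjamini-Hochberg adjusted p = 1.2e-06, edgeR quasi-likelihood). *STC2*, a secreted glycoprotein of the stress response, was at 42.3 and 40.7 CPM in DMSO cells, 7.53 and 8.02 CPM under nutlin and 62.3 and 64 CPM under the combination, an 8.09-fold rise over nutlin. With GSK2830371 alone both stood higher still, *SLC1A4* at 31.6 and 31 CPM and *STC2* at 82 and 79 CPM. *SLC7A11*, the cystine importer, was at 19.9 and 16.4 CPM under nutlin, 80.5 and 65.8 CPM with GSK2830371 alone and 124 and 108 CPM under the combination. *PCK2*, the mitochondrial PEP carboxykinase, was at 49.2 and 51.5 CPM in DMSO cells, 27.1 and 28.5 CPM under nutlin and 157 and 164 CPM under the combination. For each of the 4 genes the nutlin libraries were the lowest of the 8 and did not overlap any other treatment.

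Others of these 12 increases started from low levels. *RAB39B*, a small GTPase of vesicle traffic, was at 0.925 and 0.484 CPM under nutlin and 11 and 9.42 CPM under the combination. *CSTA*, a cysteine protease inhibitor of the epidermis, was at 0.628 and 0.718 CPM under nutlin and 5.59 and 7.7 CPM under the combination. *LCE1C* and *LCE1F* belong to the late cornified envelope genes of the epidermis, a cluster of near-identical copies among which reads may have been split or dropped, so their values are uncertain. *LCE1C* had 21 and 32 counts under nutlin and 223 and 483 under the combination, and 0 in the 4 libraries without nutlin. *LCE1F* had 78 and 140 counts under nutlin and 650 and 967 under the combination, again with 0 in the libraries without nutlin. *CXCL8*, the neutrophil chemokine interleukin 8, was at 3.24 and 4.12 CPM under nutlin and 17.5 and 22 CPM under the combination. *KLHDC7B*, a kelch domain gene, was the 1 gene with at most 3 counts in each nutlin library and at least 1 CPM in both combination libraries: it had 0 and 1 counts under nutlin and 217 and 193 counts under the combination, which is 6 and 3.2 CPM. In DMSO libraries it had 1 and 0 counts and with GSK2830371 alone 9 and 15.

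**Figure D2:**
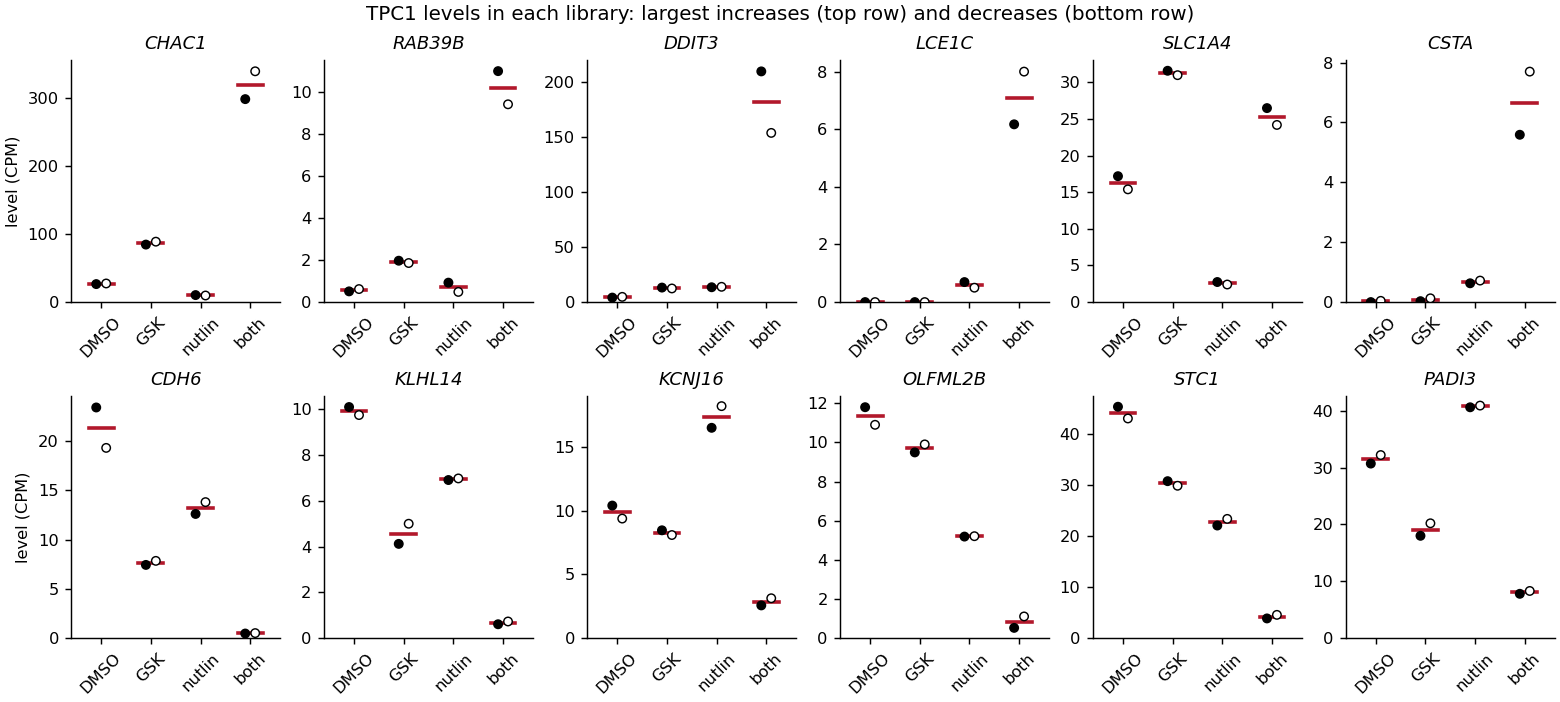
Levels in CPM (vertical axes) of the 6 largest increases (upper panels) and 6 largest decreases (lower panels) under DMSO, GSK2830371, nutlin and both drugs, with 1 point per TPC1 library (filled, replicate 1; open, replicate 3) and a red bar at the mean of 2. *CHAC1* stands at 299 and 340 CPM with both drugs against 10.3 and 9.69 CPM under nutlin, and *CDH6* at 0.47 and 0.513 CPM against 12.6 and 13.8 CPM.

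The 12 largest decreases, of called genes whose nutlin mean reached 5 CPM and whose groups did not overlap, included genes for adhesion, matrix and transport. *CDH6* (chr5:31193793-31329253, forward strand), a cadherin of kidney epithelium, was at 12.6 and 13.8 CPM under nutlin and 0.47 and 0.513 CPM under the combination, where it rested on 17 and 31 counts. It was at 23.4 and 19.3 CPM in DMSO cells and 7.43 and 7.84 CPM with GSK2830371 alone. Its log2 fold change was −4.73 ± 0.17 (Benjamini-Hochberg adjusted p = 1.2e-06, edgeR quasi-likelihood). *KLHL14*, a kelch gene of the reverse strand of chromosome 18, was at 6.91 and 6.98 CPM under nutlin and 0.608 and 0.729 CPM under the combination. In both genes the combination libraries were the lowest of the 8. *KCNJ16*, an inward rectifier potassium channel, was at 16.5 and 18.2 CPM under nutlin, its highest treatment, and 2.57 and 3.13 CPM under the combination. *PADI3*, a peptidylarginine deiminase, likewise went from 40.6 and 40.9 CPM to 7.8 and 8.3 CPM. *STC1*, the paralog of *STC2*, fell by 2.42 ± 0.101 on the log2 scale from 22.1 and 23.4 CPM to 3.87 and 4.57 CPM, so these related hormone genes moved in opposite directions. *HAS3*, a hyaluronan synthase, went from 113 and 106 CPM to 23.5 and 25.9 CPM. *OLFML2B*, an olfactomedin-like matrix gene, went from 5.19 and 5.21 CPM to 0.526 and 1.11 CPM. The other 5 of the 12 largest decreases were those of *NOX5* (log2 −2.14), an NADPH oxidase gene, *LRRN4* (−2.07), *HSD3B7* (−2.02), an enzyme gene of bile acid synthesis, *SLC4A4* (−1.98), a bicarbonate cotransporter gene, and *SIGLEC15* (−1.97). All 12 kept their call under each of the 17 alternative settings.

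Transcription factors of the integrated stress response moved furthest among the lists with more than 5 genes tested: 10 of 14 were called higher and 1 lower, with a median log2 fold change of 1.03. *ATF4*, which drives this program and is regulated mainly at translation, was at 476 and 499 CPM under nutlin and 1007 and 1074 CPM under the combination, and at 616 and 693 CPM in DMSO cells. Its log2 fold change over nutlin was 1.09 ± 0.0894 (Benjamini-Hochberg adjusted p = 8.6e-05, edgeR quasi-likelihood). *ATF3*, a stress factor that p53 and ATF4 both induce, was at 5.65 and 5.6 CPM under nutlin and 37.6 and 42.8 CPM under the combination, a 7.15-fold rise. *CEBPG*, a partner of ATF4 on DNA, was at 15.7 and 16.6 CPM under nutlin and 79.8 and 82.1 CPM under the combination, and at 34.9 and 35.8 CPM in DMSO cells. *TRIB3*, a pseudokinase that restrains ATF4 and AKT, went from 126 and 128 CPM to 423 and 337 CPM. The other genes called higher were *JDP2* (1.34), *NUPR1* (1.12), *CEBPB* (0.96), *MAFF* (0.82) and *NFE2L1* (0.68, log2 fold changes). *KLF10*, a zinc finger repressor that TGF-beta induces, was the 1 called lower, from 66.1 and 66.8 CPM to 40.1 and 38.9 CPM.

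Promoters are shown for the 5 genes with the largest fold change, of those named by the rule and called higher, that hold a match within the 250 bases before the annotated start to TGATGNAA (N, any base), the shared core of the CEBP-ATF response elements through which ATF4 acts on its targets, since these genes moved together. Sequences are these 250 bases, from RefSeq on GRCh38.p14, 5′ to 3′ on the strand of the gene, and capitals mark the match on either strand. *KLHDC7B* lies at chr22:50545649-50545898 (+), *CHAC1* at chr15:40953221-40953470 (+), *ATF3* at chr1:212565157-212565406 (+), *CEBPG* at chr19:33373863-33374112 (+) and *ASNS*, the asparagine synthetase gene, at chr7:97872409-97872658 (−).
KLHDC7B: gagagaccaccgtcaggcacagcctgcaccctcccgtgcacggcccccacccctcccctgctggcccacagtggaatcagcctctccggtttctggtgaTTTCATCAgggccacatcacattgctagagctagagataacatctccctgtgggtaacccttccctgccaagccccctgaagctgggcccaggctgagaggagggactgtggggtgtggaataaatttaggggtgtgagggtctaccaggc
CHAC1: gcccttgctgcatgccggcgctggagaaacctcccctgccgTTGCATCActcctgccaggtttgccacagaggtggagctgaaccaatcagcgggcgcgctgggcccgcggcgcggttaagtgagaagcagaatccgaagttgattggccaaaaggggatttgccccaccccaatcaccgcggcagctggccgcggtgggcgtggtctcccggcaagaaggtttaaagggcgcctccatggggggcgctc
ATF3: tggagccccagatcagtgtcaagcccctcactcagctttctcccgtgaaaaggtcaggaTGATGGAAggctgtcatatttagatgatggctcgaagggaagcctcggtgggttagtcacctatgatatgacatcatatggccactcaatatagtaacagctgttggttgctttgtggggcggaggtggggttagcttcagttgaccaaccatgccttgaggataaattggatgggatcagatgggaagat
CEBPG: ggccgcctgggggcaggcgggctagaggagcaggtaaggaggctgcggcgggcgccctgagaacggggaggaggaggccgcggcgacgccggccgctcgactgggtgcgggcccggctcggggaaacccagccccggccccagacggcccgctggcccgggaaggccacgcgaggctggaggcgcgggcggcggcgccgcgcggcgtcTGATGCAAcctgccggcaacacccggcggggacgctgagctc
ASNS: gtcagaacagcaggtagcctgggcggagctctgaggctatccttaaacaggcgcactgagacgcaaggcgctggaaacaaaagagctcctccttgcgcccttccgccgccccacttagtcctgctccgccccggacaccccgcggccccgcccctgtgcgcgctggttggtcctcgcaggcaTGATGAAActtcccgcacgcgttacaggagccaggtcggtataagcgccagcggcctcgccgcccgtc
The match begins 151 bases before the start in *KLHDC7B*, 209 in *CHAC1*, 191 in *ATF3*, 42 in *CEBPG* and 68 in *ASNS*. Searched over windows from 250 bases before to 50 after the start, 3 of 25 windows of the listed integrated stress response factors hold this match (12%) and 6 of 42 of the amino acid transporters (14.3%), against 3.62% of the 35116 windows of the table. It is 1 of 5 motifs searched, and the AP-1 motif TGACTCA is in 3 (12%) and 7 (16.7%) of the same windows, against 4.95% of the table. A gene with several annotated starts has several windows. *ATF3*, *CEBPG* and *ASNS* have 2 each, of which 1 holds the match to TGATGNAA, and that 1 is shown. The same comparison for all called genes is void, because 73.7% of the genes called higher and 76.3% of those called lower have a promoter in the table, under the 80% required. A match is a description of these letters and no evidence of binding.

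Of 22 genes for eIF2alpha kinases, phosphatases and the eIF2 and eIF2B subunits, 3 were called higher and 0 lower (median −0.06). *PPP1R15A* (GADD34), the stress-induced subunit that directs a phosphatase to eIF2alpha, was at 61.5 and 65.6 CPM under nutlin and 228 and 161 CPM under the combination (log2 1.61 ± 0.151). The log2 fold change of *EIF2S2*, the beta subunit of eIF2, was 0.84 ± 0.126. *IMPACT*, an inhibitor of the kinase GCN2, was near the fold threshold at 0.61, and its call was lost without combination replicate 3 (0.53) or nutlin replicate 1 (0.54), with moderated DESeq2 (0.57) or with a GC and length correction (0.56). The kinases themselves were not called. *EIF2AK1*, the heme-regulated kinase HRI, was at 131 and 135 CPM under nutlin and 115 and 127 CPM under the combination (log2 −0.13 ± 0.0869). *EIF2AK3*, the kinase PERK of the endoplasmic reticulum, was at 18.1 and 18.9 CPM and then 16.2 and 17.3 CPM (−0.14 ± 0.0916). *EIF2AK4*, the amino acid sensor GCN2, was at 194 and 187 CPM and then 199 and 192 CPM (0.03 ± 0.0806), and *EIF2AK2*, the RNA-activated kinase PKR, was at 53 and 50.8 CPM and then 52.5 and 43.4 CPM (−0.12 ± 0.152). *EIF2S1*, which codes for eIF2alpha itself, gave 0.05 ± 0.0893. These are RNA levels, which say nothing of phosphorylation.

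Of 29 enzymes of amino acid and one-carbon metabolism, 16 were called higher and 2 lower (median 0.72). *ASNS* was at 54.2 and 56.6 CPM under nutlin and 222 and 272 CPM under the combination, and at 68.2 and 78.6 CPM in DMSO cells. *MTHFD2*, the mitochondrial folate enzyme, was at 127 and 120 CPM under nutlin and 529 and 576 CPM under the combination, with 242 and 233 CPM in DMSO cells. *CTH*, which makes cysteine from cystathionine, went from 7.63 and 8.68 CPM to 36.1 and 32.8 CPM. The serine synthesis genes *PSAT1* and *PHGDH* were among those called higher, with log2 fold changes of 1.46 ± 0.0745 and 1.06 ± 0.0868. Among those called lower was *SHMT1*, the cytosolic counterpart of the mitochondrial serine hydroxymethyltransferase (−0.92 ± 0.11), while *SHMT2*, the mitochondrial form, was called higher.

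Of 25 amino acid transporters 6 were called higher and 2 lower (median 0.11), so the rise was limited to part of that list. Besides *SLC1A4* and *SLC7A11* it included *SLC6A9*, a glycine transporter (log2 2.31 ± 0.091), *SLC1A5*, a glutamine transporter (1.81 ± 0.0781), *SLC3A2*, the shared heavy chain of several transporters (1.03), and *SLC25A15* (0.62). *SLC1A5* was at 445 and 424 CPM in DMSO cells, 182 and 171 CPM under nutlin and 601 and 633 CPM under the combination. *SLC7A5*, the most abundant of the list and the partner of *SLC3A2* in leucine import, was at 3071 and 2876 CPM under nutlin and 4348 and 4187 CPM under the combination (0.52 ± 0.0951), short of the fold threshold. *SLC6A6*, a taurine transporter, fell by 1.78 ± 0.112 on the log2 scale, from 213 and 191 CPM to 53.9 and 63.7 CPM. *SLC7A2*, an arginine transporter, was the other one called lower (−0.68), and the count became 1 without combination replicate 3 (*SLC7A2* −0.61), nutlin replicate 1 (−0.66) or nutlin replicate 3 (−0.71).

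Aminoacyl-tRNA synthetases load amino acids onto tRNA, in the cytosol and in mitochondria. Of 23 cytosolic enzymes 8 were called higher and 0 lower (median 0.42), and of 17 mitochondrial enzymes 0 were called in either direction (median −0.09). *GARS* was at 254 and 254 CPM under nutlin and 580 and 587 CPM under the combination, and at 335 and 367 CPM in DMSO cells (log2 1.20 ± 0.0773 over nutlin). *WARS* (1.12), *AARS* (1.09), *SARS* (1.06), *MARS* (0.86), *IARS* (0.82), *YARS* (0.79) and *EPRS* (0.68) made up the other calls. *GARS* serves both compartments and is counted in the cytosolic list. Without combination replicate 1 or nutlin replicate 3, 1 mitochondrial enzyme was called lower. The difference between these lists was not tested.

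Of 10 secreted stress factors 3 were called higher and 3 lower (median −0.03). *GDF15*, a hormone of cell stress and the most abundant of the list, was at 1604 and 1724 CPM under nutlin and 4693 and 5001 CPM under the combination (log2 1.54 ± 0.104). *ADM2*, a peptide of the calcitonin family, rose from 34 and 30.2 CPM to 124 and 104 CPM. *IGFBP3*, a carrier of insulin-like growth factors, fell by 1.03 ± 0.181 on the log2 scale, as *STC1* and *ANGPTL4* did, the last without a call when combination replicate 1 (−0.41) or nutlin replicate 3 (−0.54) was left out or with moderated DESeq2 (−0.58). Of 13 brakes on mTORC1 signalling 4 were called higher and 2 lower (median 0.16). *SESN2* and *DDIT4*, which both p53 and ATF4 induce, rose by 0.94 ± 0.073 and 0.93 ± 0.0882 on the log2 scale. *EIF4EBP1*, a repressor of cap-dependent translation, was at 103 and 109 CPM under nutlin and 216 and 231 CPM under the combination, with 185 and 227 CPM in DMSO cells. *DEPTOR* was called lower (−0.67), as was *SESN3*, which lay under 1 CPM in all 4 libraries. The count of brakes called lower was 1 without combination replicate 3, nutlin replicate 1 or nutlin replicate 3, and with DESeq2, moderated or not. Of 15 glutathione genes *CHAC1* was the 1 called (median −0.04).

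Of 35 genes for chaperones of the endoplasmic reticulum and for its degradation pathway 6 were called higher and 3 lower (median 0.11). *XBP1*, a transcription factor of the unfolded protein response, was at 51.6 and 58.7 CPM under nutlin and 141 and 178 CPM under the combination (log2 1.53 ± 0.148). *HSPA5*, the chaperone BiP, was at 1082 and 1100 CPM under nutlin, 2368 and 2296 CPM under the combination and 1409 and 1488 CPM in DMSO cells. *PDIA4*, a disulfide isomerase, fell by 0.68 ± 0.0926 on the log2 scale, and *CALR*, the most abundant of the list, gave −0.56 ± 0.0988, short of the fold threshold. *CRELD2* (−0.70) and *SDF2L1* (−0.59) were the others called lower. Of this list 0 were called lower without combination replicate 1 (*PDIA4* −0.56, *CRELD2* −0.48, *SDF2L1* −0.55) and 5 without combination replicate 3. *CRELD2* also lost its call without nutlin replicate 1 (−0.73) or nutlin replicate 3 (−0.66), and *SDF2L1* with moderated DESeq2 (−0.58). Of 31 cytosolic heat shock chaperones 3 were called higher and 2 lower (median 0.09). *CRYAB*, a small heat shock protein gene, went from 0.33 and 0.64 CPM to 2.07 and 2.35 CPM. *HSPA6* and *HSPA1B* were the other genes called higher; both have near-identical copies, so their values are uncertain, and *HSPA1B* (log2 0.62) lost its call without combination replicate 3 (0.47) or nutlin replicate 3 (0.58) and with moderated DESeq2 (0.57). The heat shock genes called lower were 1 without GSK2830371 replicate 3, either combination replicate or nutlin replicate 3, and 0 without nutlin replicate 1. They were also 1 with DESeq2 or with edgeR on the 4 libraries, and 0 with moderated DESeq2.

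Of 24 genes of the NRF2 pathway 5 were called higher and 1 lower (median 0.17). *SRXN1*, a repair enzyme of peroxiredoxins, was at 125 and 124 CPM under nutlin and 260 and 241 CPM under the combination (log2 1.01 ± 0.0756), and *TXNRD1* rose by 0.66 ± 0.0691. *AKR1C3* fell by 0.83 ± 0.15 on the log2 scale. Of 21 heme genes 0 were called higher and 1 lower (median −0.08). *HMOX1*, the inducible heme oxygenase and the most abundant of them, was at 448 and 467 CPM under nutlin and 891 and 481 CPM under the combination, so its combination libraries lay far apart. Its log2 fold change was 0.59 ± 0.225 (Benjamini-Hochberg adjusted p = 0.089, edgeR quasi-likelihood), and without combination replicate 3 it was 0.97 and called. *HMOX2*, the constitutive oxygenase, fell by 0.64 ± 0.0998. The heme genes called lower were 2 without either combination replicate, with the replicate block or without a filter. Of 18 iron genes 1 was called higher and 1 lower (median −0.12), *SLC39A14*, a zinc and iron importer (0.99 ± 0.114), and *STEAP3*, an endosomal ferrireductase (−0.63 ± 0.0952). The iron counts were 2 higher and 2 lower without combination replicate 3, and the lower count was 0 without nutlin replicate 1 or with the GC and length correction (*STEAP3* −0.57), and 2 without nutlin replicate 3 or with library size alone.

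Of 36 autophagy genes 1 was called higher and 0 lower (median 0.10), and 2 were called higher without nutlin replicate 1. The 1 was *MAP1LC3B*, whose product coats autophagosomes, at 128 and 136 CPM under nutlin and 363 and 303 CPM under the combination, and 91.6 and 101 CPM in DMSO cells. *SQSTM1*, the cargo receptor p62 and the most abundant gene of that list, gave 0.23. Of 35 lysosomal genes 0 were called higher and 3 lower (median −0.26). *GLA*, alpha-galactosidase, fell by 0.74 ± 0.109 on the log2 scale, from 23.9 and 25.8 CPM to 14.6 and 15.1 CPM. The other calls were *NPC1* (−0.65) and *CTSV* (−0.62), and 1 lysosomal gene was called without nutlin replicate 1 (*NPC1* −0.61, *CTSV* −0.67) or nutlin replicate 3 (−0.69 and −0.55), neither of these 2 genes being past the adjusted p there. Without combination replicate 3 both also lost their call (−0.43 each), as did *CTSV* with moderated DESeq2 (−0.56).

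Of 15 genes of p53 and its repressors 2 were called higher and 1 lower (median 0.03). The count of higher genes was 1 without combination replicate 1, with library size alone or with moderated DESeq2. *MDM4*, the MDM2 partner, rose by 0.70 ± 0.128, and *CHEK1*, a checkpoint kinase gene counted in this list, fell by 0.65 ± 0.0775. Without combination replicate 3 the genes called lower were 2. *MDM2* was at 4128 and 4084 CPM under nutlin and 4848 and 4892 CPM under the combination, a log2 difference of 0.25 ± 0.0893 (Benjamini-Hochberg adjusted p = 0.074, edgeR quasi-likelihood). *PPM1D*, the target of the added inhibitor, was at 58.6 and 60.1 CPM under nutlin and 47.8 and 50.2 CPM under the combination (−0.28 ± 0.0817), short of the fold threshold, and at 15.1 and 16.6 CPM in DMSO cells.

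Of 18 p53 targets of growth arrest 10 were called higher and 0 lower (median 0.64). *CDKN1A*, the CDK inhibitor p21, was at 6684 and 6798 CPM under nutlin and 11365 and 13227 CPM under the combination, against 127 and 149 CPM in DMSO cells (log2 0.87 ± 0.116 over nutlin; Benjamini-Hochberg adjusted p = 0.001, edgeR quasi-likelihood). *GADD45A*, which slows entry into mitosis, was at 179 and 183 CPM under nutlin and 398 and 464 CPM under the combination (1.25 ± 0.0975). *PLK3*, a stress kinase, went from 52.8 and 49.8 CPM to 101 and 116 CPM. The largest fold changes of the list were those of *BTG1*, an antiproliferative gene (1.59), and *KLF4*, a zinc finger factor (1.39), and both were at or under their DMSO levels with nutlin alone: *BTG1* was at 13.9 and 17.3 CPM in DMSO cells and 13.6 and 14.5 CPM under nutlin, and *KLF4* at 5.56 and 6.32 CPM and then 4.59 and 4.79 CPM.

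Of 23 p53 targets of cell death 5 were called higher and 1 lower (median 0.40). *PMAIP1* (NOXA), a BH3-only activator of apoptosis, was at 23.9 and 24.3 CPM under nutlin, no higher than its 27.1 and 25.3 CPM in DMSO cells, and at 67.7 and 85.6 CPM under the combination (1.67 ± 0.113). *BCL2L11* (BIM) went from 9.82 and 9.41 CPM to 18.1 and 17.2 CPM (0.88 ± 0.0859). *BBC3* (PUMA), another BH3-only gene, was at 7.65 and 8.58 CPM in DMSO cells, 78.4 and 78.9 CPM under nutlin and 98.2 and 116 CPM under the combination, a difference of 0.45 ± 0.102 that missed the fold threshold. *TP53I3*, the most abundant of the list, gave 0.40. The decoy death receptor *TNFRSF10D* and the receptor *TNFRSF10A* stood at the threshold (0.59 each): *TNFRSF10D* lost its call without combination replicate 3 (0.53) and *TNFRSF10A* without DMSO replicate 3 (0.58), combination replicate 1 (0.54) or nutlin replicate 3 (0.54). Neither was called with library size alone (0.57 each), moderated DESeq2 (0.56 and 0.55), edgeR on the 4 libraries (0.58 each) or the GC and length correction (0.57 and 0.58), nor *TNFRSF10A* without a filter (0.58). *TRAF4* (0.62) lost its call without combination replicate 3 (0.50) or with moderated DESeq2 (0.58). The count of 5 was thus 2 with moderated DESeq2 and 3 in the other 3 of these 4 fits. The 1 called lower was *STEAP3*, not called without combination replicate 3 (−0.57) or nutlin replicate 1 (−0.54) or with the GC and length correction (−0.57).

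Of 40 p53 targets of repair and metabolism 5 were called higher and 2 lower (median 0.25). *SESN2*, *ANKRA2* (0.92 ± 0.114), *PANK1*, a pantothenate kinase gene (0.91 ± 0.0933), *RAP2B* (0.70) and *RRM2B*, a ribonucleotide reductase subunit gene (0.69), were those higher. *LPIN1* (−0.72) and *SCO2* (−0.66) were those lower, and 1 remained without combination replicate 3, when *LPIN1* was at −0.53. In the BCL2 family 4 of 20 were called higher and 0 lower (median 0.14). Besides *PMAIP1* and *BCL2L11* these were the low-level survival genes *BCL2* (0.79) and *BCL2A1* (0.80), and the count was 2 without combination replicate 1 (0.64 and 0.80, neither past the adjusted p), with moderated DESeq2 (0.52 and 0.60) or with edgeR on the 4 libraries (0.78 and 0.79). *BCL2* also lost its call without combination replicate 3 (0.96), nutlin replicate 1 (0.84) or nutlin replicate 3 (0.71), and *BCL2A1* without combination replicate 3 (0.79) or nutlin replicate 1 (0.55). Of 30 death receptors and caspases 2 were called higher, the *TNFRSF10* genes above, and 2 lower (median 0.07), and 1 was called higher without DMSO replicate 3 or without a filter. With library size alone, moderated DESeq2, edgeR on the 4 libraries or the GC and length correction 0 were called higher. *MLKL*, the effector of necroptosis, fell by 0.94 ± 0.135 on the log2 scale, from 4.63 and 3.89 CPM to 2.13 and 2.25 CPM. *BIRC3* was the other called lower (−0.74), and not without combination replicate 1 (−0.50) or nutlin replicate 3 (−0.69), which left a count of 1.

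Genes of mitosis fell as a group. Of 56 mitosis and kinetochore genes 30 were called lower and 1 higher (median −0.70), with 49 of the 56 log2 fold changes below 0. *SPC24*, a kinetochore subunit, was at 38.4 and 36.3 CPM in DMSO cells, 4.66 and 3.82 CPM under nutlin and 0.94 and 1.23 CPM under the combination (−1.91 ± 0.156). *KIFC1*, a minus-end kinesin, was at 122 and 125 CPM, then 7.04 and 5.57 CPM, then 2.24 and 1.61 CPM in the same order (−1.73 ± 0.166 against nutlin). *KIF18B* and *CENPI* fell by 1.54 ± 0.237 and 1.48 ± 0.17. By these levels the genes were already far below DMSO cells under nutlin alone, and lower again under the combination. *KIF20A*, a kinesin of the central spindle, was the 1 called higher: it was at 175 and 183 CPM in DMSO cells, 15.8 and 13.1 CPM under nutlin and 25.3 and 28.1 CPM under the combination (0.89 ± 0.105; Benjamini-Hochberg adjusted p = 0.00052, edgeR quasi-likelihood).

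Promoters of the mitotic genes *MKI67* and *DLGAP5* are shown because TTTGAA, the cell cycle homology region bound by the DREAM and MuvB complexes, occurs in most promoters of this list. Of the called-lower genes of the list, taken by size of decrease, they are the first 2 with a match in the 250 bases before a start. They were thus chosen by their values. *MKI67* lies at chr10:128126424-128126673 (−) and *DLGAP5* at chr14:55191586-55191835 (−), 250 bases before the start from RefSeq on GRCh38.p14, 5′ to 3′ on the gene strand, with matches on either strand in capitals.
MKI67: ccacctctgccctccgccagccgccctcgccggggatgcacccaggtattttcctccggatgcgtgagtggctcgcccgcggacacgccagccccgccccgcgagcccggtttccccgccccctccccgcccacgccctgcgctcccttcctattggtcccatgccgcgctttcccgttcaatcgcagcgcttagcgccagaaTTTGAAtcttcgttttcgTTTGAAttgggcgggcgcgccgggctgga
DLGAP5: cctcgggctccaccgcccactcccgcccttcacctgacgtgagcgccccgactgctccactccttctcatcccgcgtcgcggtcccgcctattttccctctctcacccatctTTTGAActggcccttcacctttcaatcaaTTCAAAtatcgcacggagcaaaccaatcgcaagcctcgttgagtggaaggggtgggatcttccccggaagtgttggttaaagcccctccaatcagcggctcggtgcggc
The matches begin 47 and 29 bases before the start in *MKI67* and 138 and 109 in *DLGAP5*. *MKI67*, the proliferation antigen Ki-67, was at 26.7 and 23.4 CPM under nutlin and 11.6 and 8.07 CPM under the combination, against 1416 and 1049 CPM in DMSO cells. *DLGAP5*, a spindle protein gene, was at 4.1 and 3.42 CPM under nutlin and 1.63 and 1.69 CPM under the combination. TTTGAA was found in 36 of 54 windows of the mitosis list (66.7%) against 15.2% of all 35116 windows. TTTCCCGC, a form of the E2F site, was found in 13 of 57 windows of the DNA replication list (22.8%) against 1.63%.

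Of 48 genes of DNA replication and nucleotide supply 0 were called higher and 6 lower (median −0.11). *ORC1*, of the origin recognition complex, fell by 0.85 ± 0.101 on the log2 scale and *RRM2*, a ribonucleotide reductase subunit, by 0.80 ± 0.0998. *RRM2* was at 396 and 422 CPM in DMSO cells, 12.9 and 11.7 CPM under nutlin and 6.58 and 7.4 CPM under the combination. Of 29 cyclins, CDKs and their regulators 2 were called higher and 8 lower (median −0.30), and the lower count was 5 without nutlin replicate 3. *CCND1*, cyclin D1 of G1 phase, was at 716 and 673 CPM under nutlin and 278 and 276 CPM under the combination, with 636 and 599 CPM in DMSO cells and 666 and 663 CPM with GSK2830371 alone (−1.33 ± 0.0758). *CCNB1*, cyclin B1 of mitosis, went from 20.2 and 21.2 CPM to 11.1 and 12.2 CPM. *CDKN1A* is counted among those higher, the other being *CKS1B* (0.65), which lost its call without combination replicate 3 (0.54) or nutlin replicate 1 (0.58) or with the GC and length correction (0.57), leaving 1. Of 20 E2F factors and pocket proteins 1 was called higher and 1 lower (median 0.05). *FOXM1*, a driver of mitotic genes, fell by 1.16 ± 0.114 on the log2 scale. *E2F7*, a repressor that p53 induces, was the 1 higher (0.71): it was called neither without combination replicate 1 (0.48), where the count was 0, nor without nutlin replicate 1 (0.78) or nutlin replicate 3 (0.64, count 0), and the replicate block and the GC and length correction gave 2 higher. Of 36 homologous recombination and Fanconi genes 1 was called higher, *RBBP8* (CtIP, 0.68 ± 0.0843), and 0 lower (median −0.06), with 2 higher without combination replicate 1.

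Of 28 inflammatory cytokines and NF-kB targets 7 were called higher and 3 lower (median 0.21). *IL6*, the cytokine interleukin 6, was at 36.5 and 42.4 CPM under nutlin and 106 and 111 CPM under the combination, and at 5.26 and 6.31 CPM in DMSO cells (log2 1.46 ± 0.113). *IL11*, a related cytokine, went from 11.2 and 10.4 CPM to 24 and 26.4 CPM. *TNFAIP2*, the most abundant of the list, fell by 0.91 ± 0.0744, from 188 and 184 CPM to 94.3 and 104 CPM, and *SOD2*, the mitochondrial superoxide dismutase, fell by 0.61 ± 0.0902, short of the fold threshold with the GC and length correction (−0.57). Of 12 EGF receptor ligands and receptors 3 were called higher and 1 lower (median 0.21). The ligands *AREG* (2.22 ± 0.188) and *HBEGF* (1.74 ± 0.155) rose, *AREG* from 1.29 and 1.19 CPM to 5.67 and 5.8 CPM and *HBEGF* from 3.7 and 4.67 CPM to 12.8 and 15.4 CPM. *EREG* was the other ligand called higher (0.75, and 0.68 without nutlin replicate 3, where its call was lost). *EGF*, near 1 CPM, was called lower (−0.81), but in none of the 8 fits with a library left out, where it ranged from −0.97 without combination replicate 1 to −0.55 without nutlin replicate 3, so that 0 remained, nor with DESeq2 (−0.78), moderated DESeq2 (−0.46) or edgeR on the 4 libraries (−0.81).

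Of 26 MAPK output and feedback genes 4 were called higher and 5 lower (median −0.21). *SPRY1*, an inhibitor of receptor signalling, was at 8.16 and 6.45 CPM under nutlin and 17.7 and 18.1 CPM under the combination (1.31 ± 0.124), and at 4.79 and 4.47 CPM with GSK2830371 alone. *EPHA2*, an ephrin receptor, was at 677 and 647 CPM under nutlin and 1387 and 1473 CPM under the combination. The MAP kinase phosphatase genes went both ways: *DUSP1* (0.97 ± 0.0836) and *DUSP5* (0.83 ± 0.0837) rose, whereas *DUSP10* (−1.20 ± 0.0851) and *DUSP6* (−0.66 ± 0.0901) fell. *ETV1*, an ETS factor (−0.93), and *HMGA2* were called lower with *CCND1*. Of 31 AP-1, EGR and MYC family factors 6 were called higher and 2 lower (median 0.28). *MXD1*, an antagonist of MYC, rose by 1.47 ± 0.0888, and *NR4A3*, an orphan nuclear receptor, was called higher too. *JUN* fell by 0.72 ± 0.0699, from 139 and 148 CPM to 86.9 and 86.8 CPM, and *KLF6* by 0.95 ± 0.106. Of 33 interferon-stimulated genes 0 were called higher and 5 lower (median −0.20), among them *IFIT1* (−0.99 ± 0.178), *PARP9* (−0.97 ± 0.115) and *OAS3* (−0.79 ± 0.125), which act against viruses, and 1 was called higher without combination replicate 1 or nutlin replicate 3.

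Of 34 genes of sterol and fatty acid synthesis 1 was called higher and 9 lower (median −0.28), and 5 lower without combination replicate 3. *SCD*, a fatty acid desaturase, fell by 0.93 ± 0.137 on the log2 scale, and *INSIG1*, which holds back SREBP, by 0.89 ± 0.0973. *TM7SF2*, a sterol reductase, was the 1 called higher (0.71 ± 0.0903), from 31.4 and 30 CPM to 46.4 and 53.7 CPM.

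Of 37 genes for collagens, laminins, fibronectin and related matrix proteins 2 were called higher and 5 lower (median −0.24). *HAS3* was the largest decrease among them, *COL6A3* fell by 1.02 ± 0.193 and *SPARC*, a matrix glycoprotein, by 0.84 ± 0.132. *COL1A1*, a fibrillar collagen gene, went from 2.38 and 2.4 CPM to 0.857 and 1.66 CPM (−0.87), and lost its call without either GSK2830371 library (−0.87 each), combination replicate 1 (−0.53), nutlin replicate 1 (−0.88) or nutlin replicate 3 (−0.86), and in both fits of the 4 libraries (−0.65 with moderated DESeq2, −0.89 with edgeR). Those higher were *CYR61* (CCN1), a matrix-associated signal, at 664 and 702 CPM under nutlin and 1227 and 1587 CPM under the combination, and *CTGF* (CCN2, 1.03), not called without nutlin replicate 1 (0.93), where the count was 1. Of 22 cadherins and integrins 1 was called higher and 3 lower (median −0.10). Besides *CDH6* the integrin genes *ITGB3* (−0.76) and *ITGB5* (−0.59) were lower. *ITGB3* was not called without combination replicate 3 (−0.52), nutlin replicate 1 (−0.72) or nutlin replicate 3 (−0.79), and *ITGB5* not without combination replicate 3 (−0.54) or nutlin replicate 1 (−0.56) or with the GC and length correction (−0.54). The lower count was 5 without combination replicate 1 and 1 without nutlin replicate 1. *CDH4* was higher (0.61), but not called without combination replicate 1 (0.36), nutlin replicate 1 (0.68) or nutlin replicate 3 (0.54), and 0 were higher in the last 2 fits and with moderated DESeq2 (0.56). Of 14 prostaglandin genes 0 were called higher and 4 lower (median 0.01). *PTGES*, a prostaglandin E synthase gene, was at 5.55 and 5.7 CPM under nutlin and 1.22 and 1.97 CPM under the combination (−1.78 ± 0.193), and *PTGIS*, of prostacyclin synthesis, fell by 0.90 ± 0.146. Of this list 2 were lower without combination replicate 3 or nutlin replicate 3 or with moderated DESeq2, and 1 was higher without either DMSO library, with the replicate block or with the GC and length correction.

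**Figure D3:**
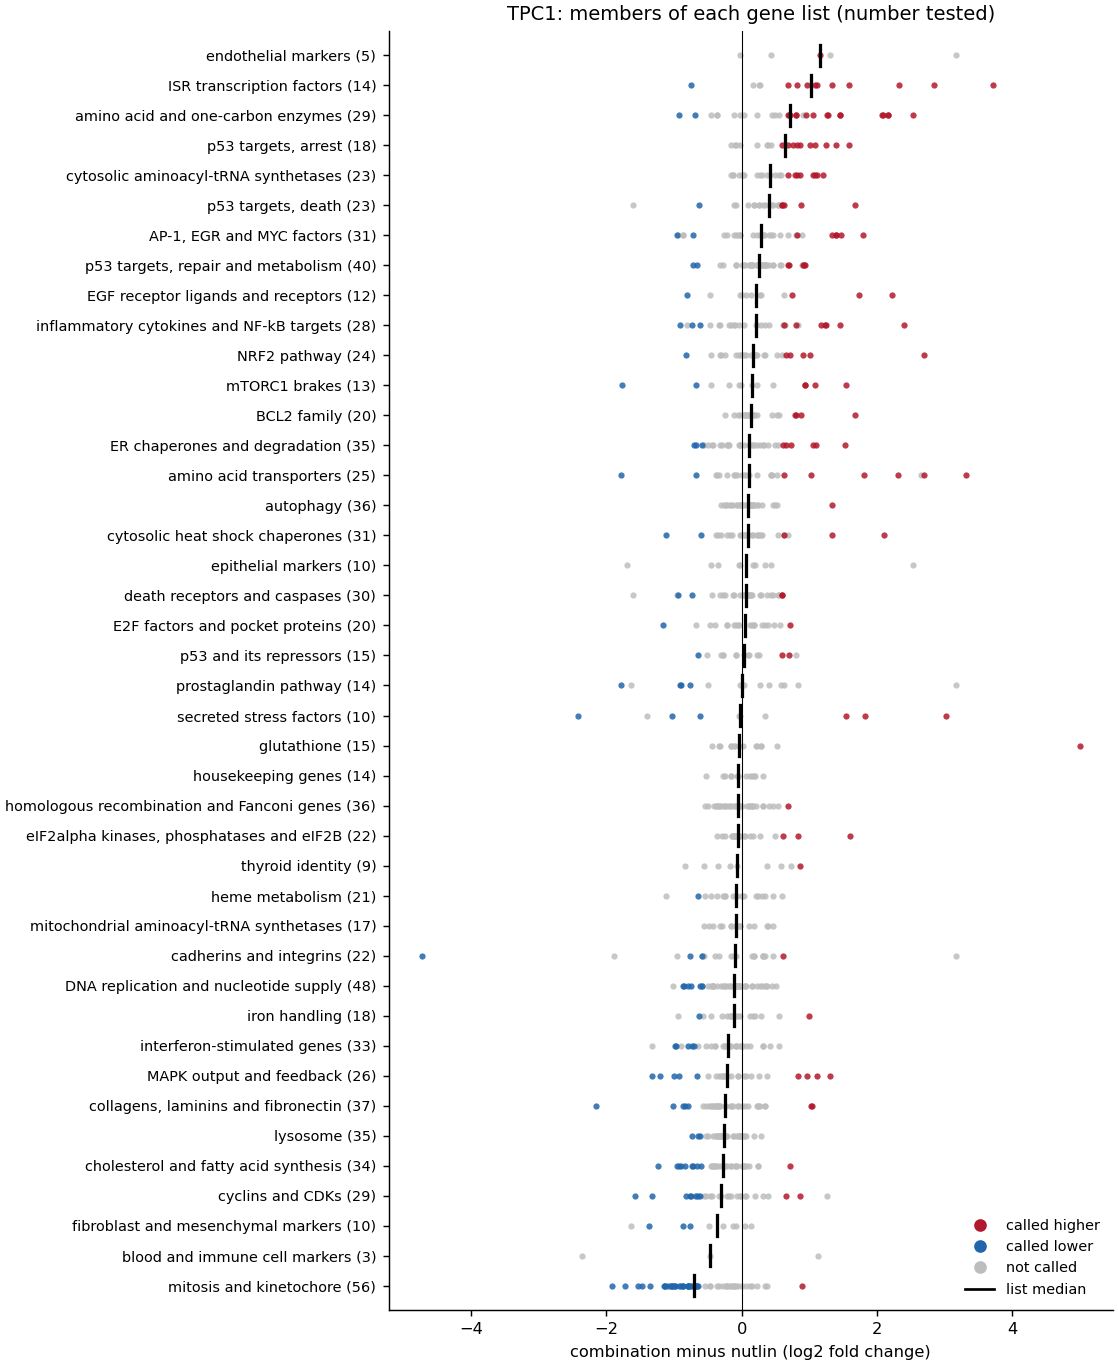
Log2 fold change of the combination over nutlin in TPC1 (horizontal axis) for every tested member of the 42 gene lists, with the number tested in brackets, red and blue points for called genes and a black bar at the median. The integrated stress response factors have a median of 1.03 and the mitosis genes of −0.70, against 0.01 for all genes tested.

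To see whether the inhibitor does the same without nutlin, GSK2830371 alone was set against DMSO in 4 other TPC1 libraries, so the 2 comparisons share none. GSK2830371 alone raised 110 genes (0.720%) and lowered 104 (0.681%), far fewer than in the presence of nutlin. Those counts depended on which libraries were fitted. They fell when any DMSO, GSK2830371 or nutlin library was left out and rose when a combination library was. Nutlin and combination libraries are not part of this comparison and enter it only through the joint fit, which shares 1 estimate of the spread. With the replicate block they were 239 and 241, and scaling by library size alone gave 166 and 85. Of the 986 genes higher in the combination over nutlin, 60 were also raised by GSK2830371 alone, which is 6.09% of the former and 54.5% of the 110. Of the 865 lower genes 53 were also lowered, 6.13% of them and 51% of the 104. Those called in opposite directions numbered 3 and 4. The shared counts fell to as few as 13 and 7 without GSK2830371 replicate 3 and were 116 and 101 with the replicate block, and without the other GSK2830371, DMSO and nutlin libraries they lay from 22 to 34 and from 9 to 30. Over the 15273 genes the log2 fold changes of the 2 comparisons correlated at 0.231 (Pearson, across genes, which are not independent replicates and whose libraries share a column number).

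*CHAC1* gained 1.69 ± 0.0874 on the log2 scale from GSK2830371 without nutlin and 5.00 ± 0.101 with it. For *DDIT3* these gains were 1.52 ± 0.158 and 3.72 ± 0.154, and for *STC2* 0.96 ± 0.0756 and 3.02 ± 0.0844. Other stress genes gained about as much without nutlin: *CTH* gained 1.61 and 2.07, *SESN2* 0.94 and 0.94, and *DDIT4* 0.97 and 0.93. *HMOX1* went the other way, at 128 and 146 CPM in DMSO cells and 549 and 574 CPM with GSK2830371 alone, a log2 fold change of 2.04 ± 0.234 against 0.59 ± 0.225 with it. *SPRY1* changed direction, at −1.24 without nutlin and 1.31 with it. List medians without nutlin were 0.48 for the integrated stress response factors, 0.12 for amino acid and one-carbon enzymes, 0.05 for cytosolic aminoacyl-tRNA synthetases, 0.09 for arrest targets of p53 and −0.26 for mitosis genes, against −0.01 for all genes.

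The difference between the effects of GSK2830371 with and without nutlin was tested gene by gene in the same fit. The effect was called larger with nutlin for 431 genes (2.82%) and smaller for 534 (3.50%), a larger effect meaning a more positive log2 fold change, and its median over all genes was 0.02. The test uses the nutlin and combination libraries again, so it is no separate evidence for the genes named above. Without nutlin replicate 3 the counts were 152 and 193, without nutlin replicate 1 162 and 207, without GSK2830371 replicate 1 176 and 227 and without GSK2830371 replicate 3 186 and 228. The replicate block gave 714 and 859, and scaling by library size alone 338 and 705. The difference was 3.31 ± 0.126 for *CHAC1* (Benjamini-Hochberg adjusted p = 1.3e-05, edgeR quasi-likelihood), −3.25 ± 0.215 for *CDH6* (Benjamini-Hochberg adjusted p = 0.00026) and 0.59 ± 0.164 for *CDKN1A* (Benjamini-Hochberg adjusted p = 0.059, edgeR quasi-likelihood).

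**Figure D4:**
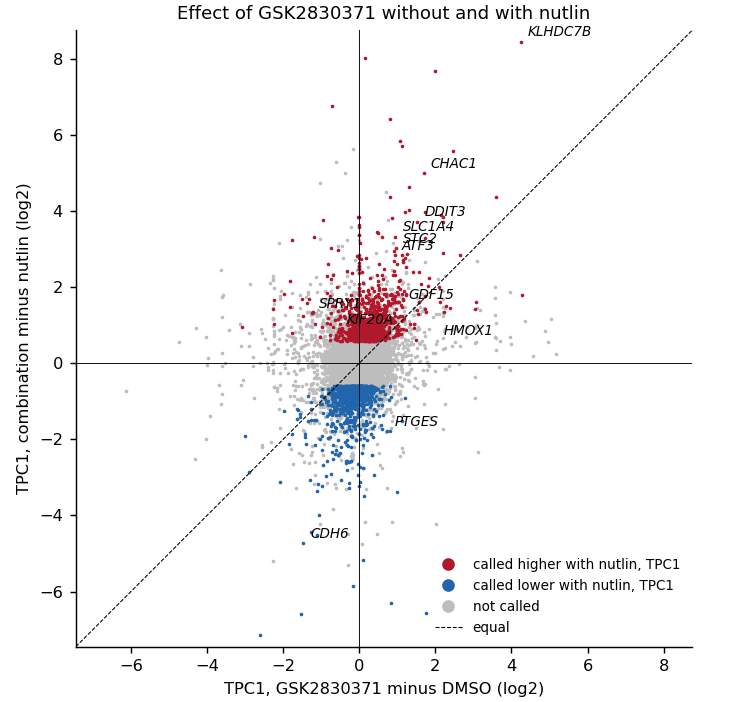
Log2 fold change of GSK2830371 over DMSO (horizontal axis) against that of the combination over nutlin (vertical axis) in TPC1, with 1 point per gene tested and a dashed line of equality. *CHAC1* lies at 1.69 and 5.00, *HMOX1* at 2.04 and 0.59 and *CDH6* at −1.48 and −4.73.

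The same comparison in K1 rests on other libraries altogether. There the combination was called higher than nutlin for 184 of 15900 genes (1.16%) and lower for 242 (1.52%). The K1 higher count was 87 without K1 nutlin replicate 2, 113 without K1 combination replicate 1 and 105 without K1 combination replicate 2, the lower count was 140 without K1 nutlin replicate 2, and scaling by library size alone gave 228 higher and 196 lower. Of the 915 TPC1 called-higher genes tested in K1, 75 were called higher there too, 8.2% of these and 45.5% of the 165 K1 genes tested in TPC1. Of 813 called-lower genes 97 were called lower in K1, 11.9% of these and 43.5% of 223. Without K1 nutlin replicate 2 these overlaps were 43 and 59. Opposite calls numbered 4 and 3. The K1 log2 fold change had the TPC1 sign for 748 of the 915 and 665 of the 813 genes, with K1 medians of 0.27 and −0.22. Genes chosen by their call in 1 line tend to show smaller values in the other, and the genes called in K1 had medians of 0.79 and −0.84 there and of 0.71 and −0.61 in TPC1. Over 14509 genes tested in both lines the correlation of the log2 fold changes was 0.337 (Pearson, across genes, which are not independent replicates).

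*CHAC1* went from 7.03 and 5.06 CPM to 64.7 and 74.9 CPM in K1, a log2 fold change of 3.54 ± 0.149 against 5.00 ± 0.101 in TPC1. *ATF4* gained 1.18 ± 0.0599 in K1 and 1.09 ± 0.0894 in TPC1. *DDIT3* was at 13.8 and 14.1 CPM under nutlin and 25 and 24.2 CPM under the combination in K1, where its gain was 0.81 ± 0.0861 against 3.72 ± 0.154 in TPC1. List medians in K1 were 0.70 for the integrated stress response factors (1.03 in TPC1), 0.28 for amino acid and one-carbon enzymes (0.72), 0.10 for cytosolic aminoacyl-tRNA synthetases (0.42) and 0.27 for arrest targets of p53 (0.64), with 0.00 over all K1 genes. Mitosis genes had a median of −0.98 in K1 and −0.70 in TPC1, and *KIF20A* was at −1.72 ± 0.152 in K1 and 0.89 ± 0.105 in TPC1. *CCND1* was at −0.11 in K1 and −1.33 in TPC1, and *HSPA5* at 0.13 and 1.10.

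The difference between the lines was tested on 16738 genes with the 16 libraries fitted jointly. The fold change was called higher in TPC1 for 428 genes (2.56%) and lower for 428 (2.56%), the lower count being 267 without K1 nutlin replicate 1. Scaling by library size alone gave 356 and 556. The difference was 2.90 for *DDIT3* (Benjamini-Hochberg adjusted p = 1.2e-07, edgeR quasi-likelihood), 2.61 for *KIF20A*, 0.96 for *HSPA5* and −1.22 for *CCND1*, all called, and −0.09 for *ATF4*, not called.

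**Figure D5:**
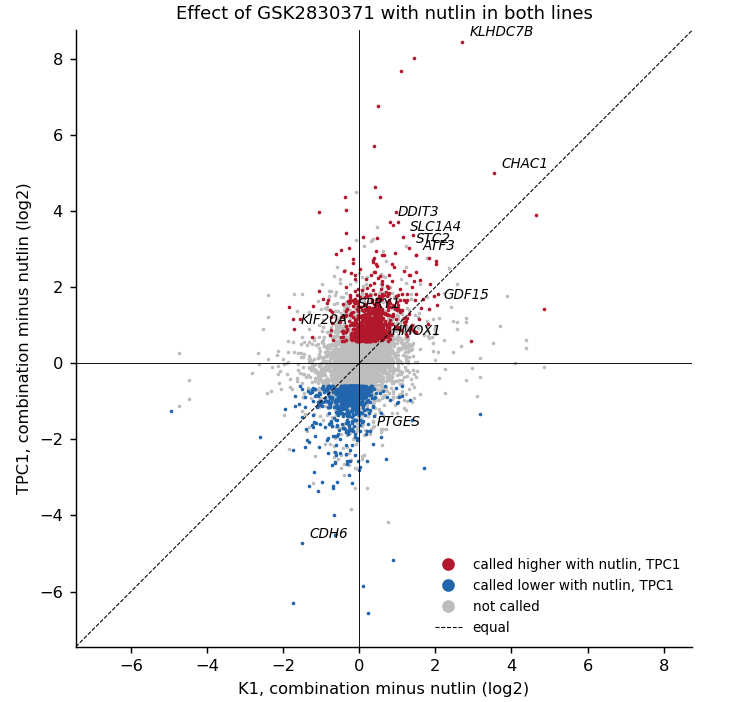
Log2 fold change of the combination over nutlin in K1 (horizontal axis) and TPC1 (vertical axis), with 1 point for each of the 14509 genes tested in both lines, coloured by the TPC1 call, and a dashed line of equality. *CHAC1* lies at 3.54 and 5.00, *DDIT3* at 0.81 and 3.72 and *KIF20A* at −1.72 and 0.89.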

How the data were processed

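The counts are reads per gene as deposited by the authors, whose notes give alignment to GRCh37 with TopHat2 2.0.13, filtering with SAMtools 1.3.1 and Picard 1.129 and counting with HTSeq 0.6.1 in stranded mode. Of 25369 genes listed, 5986 are at 0 in every TPC1 library. Genes with more than 0.1 CPM in at least 2 libraries were tested with edgeR 4.0.16 (TMM scaling, quasi-likelihood, R 4.3.3), with the 8 TPC1 libraries fitted jointly (4 residual degrees of freedom, common dispersion 0.00828), K1 alone, and all 16 libraries for the difference between lines. Calls needed a Benjamini-Hochberg adjusted p under 0.05 and a fold change over 1.5. A rule named 178 genes. It took the 12 largest called changes per direction from 5 CPM, a core list of 21 genes and up to 4 called genes per direction and list. Where a list had no called gene, its largest change was taken. The rule also took the 5 smallest p-values per direction and genes turned on. Other genes printed, such as further called members of a list or its most abundant gene, were chosen after their values were seen. The members, the 42 lists and the rule were chosen with earlier results of these data known. Other settings were DESeq2 1.42.0, other scalings and filters, a replicate block and leaving out each library. Libraries with the same column number, 1 or 3, deviated together: after removal of group means, the correlation between groups over 12308 genes was from 0.447 to 0.616, and 0.453 for the combination and nutlin. The pairing comes from these values and the column numbers alone, since the labels name no shared day or batch. The main calls have no block, and the fit with the replicate block is the alternative. Some genes are not reported here by name. The pipeline was tested on simulated data.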

Additional observations from a re-analysis of the deposited data

Results flagged for a closer look

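For 24 of the 41 genes named for size of change or as core genes, the log2 effect of GSK2830371 in TPC1 differed between cells with and without nutlin, a difference called more positive for 2.82% and more negative for 3.50% of all genes. Most of the 41 were chosen for a large change of the combination over nutlin, which is 1 part of this difference, so its sign and the high count follow in part from that choice. It was more positive with nutlin for 11 genes: *CHAC1* (3.31), *SLC1A4* (2.37), *CXCL8* (2.33), *RAB39B* (2.25), *DDIT3* (2.21), *STC2* (2.06), *ATF3* (1.91), *SLC7A11* (1.77), *PCK2* (1.29), *TRIB3* (0.80) and *ATF4* (0.77). It was more negative with nutlin for 13 genes: *CDH6* (−3.25), *OLFML2B* (−2.36), *KCNJ16* (−2.33), *KLHL14* (−2.24), *HSD3B7* (−2.21), *SLC4A4* (−2.01), *STC1* (−1.87), *HAS3* (−1.82), *LRRN4* (−1.70), *PADI3* (−1.62), *NOX5* (−1.46), *HMOX1* (−1.45) and *SIGLEC15* (−1.15). The call was lost for *ATF4* without GSK2830371 replicate 1 (0.72) or nutlin replicate 1 (0.74), for *RAB39B* without DMSO replicate 3 (2.07) and for *SLC7A11* without GSK2830371 replicate 3 or nutlin replicate 3 (1.63 each). *TRIB3* lost it without GSK2830371 replicate 1 (0.81) or 3 (0.78) or nutlin replicate 1 (0.79) or 3 (0.81). *HMOX1* lost it without DMSO replicate 1 (−1.36), GSK2830371 replicate 1 (−1.48) or 3 (−1.42), or nutlin replicate 1 (−1.48) or 3 (−1.42).

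For 22 of the 41 genes the log2 fold change of the combination over nutlin differed between TPC1 and K1, against 2.56% of all genes in each direction, and the choice by the TPC1 change favors this result in the same way. It was higher in TPC1 for 12 genes: *RAB39B* (3.02), *DDIT3* (2.90), *CSTA* (2.81), *SLC1A4* (2.17), *CXCL8* (2.01), *STC2* (1.70), *PCK2* (1.60), *CHAC1* (1.46), *ATF3* (1.34), *PPP1R15A* (1.26), *TRIB3* (0.76) and *MDM4* (0.66). It was lower in TPC1 for 10 genes: *CDH6* (−3.23), *STC1* (−2.33), *OLFML2B* (−2.30), *NOX5* (−1.81), *PADI3* (−1.71), *HAS3* (−1.55), *SLC4A4* (−1.48), *HSD3B7* (−1.18), *SIGLEC15* (−1.15) and *LRRN4* (−0.77). *ATF3* lost its call without K1 combination replicate 1 (1.36) or 2 (1.32), K1 nutlin replicate 1 (0.88), TPC1 combination replicate 3 (1.24), or TPC1 nutlin replicate 1 or 3 (1.34 each). *LRRN4* lost it without K1 combination replicate 1 (−0.83) or 2 (−0.69), K1 nutlin replicate 2 (−0.68) or TPC1 nutlin replicate 1 (−0.75), and *MDM4* without K1 combination replicate 1 (0.59), TPC1 combination replicate 1 (0.57) or TPC1 nutlin replicate 3 (0.61). Both tests use the nutlin and combination libraries of TPC1, so they are not independent of each other or of the fold changes given before.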

How the results depend on the processing

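Each treatment has 2 libraries, and each one left out leaves a lone library assumed to vary like the other groups. Calls of the combination over nutlin in TPC1, 986 higher and 865 lower, ranged from 655 to 1011 and from 641 to 904 with 1 library left out, with 655 without nutlin replicate 3, and were 1161 and 987 with the replicate block. Of the genes named by the rule the block changed only *ESRP1*, which was called higher with it (2.49). DESeq2 gave 856 and 801, and 709 and 657 with moderated fold changes. A GC and length correction, chosen after seeing the data, gave 1026 and 891. Counts of genes with a more positive or negative effect of GSK2830371 with nutlin were 714 and 859 with the replicate block and ranged from 152 to 490 and from 193 to 657 over left-out libraries. For GSK2830371 alone, higher calls were 166 with library size alone, 200 without a filter, 239 with the block and 14 to 128 over left-out libraries, and lower calls 177, 241 and 8 to 125 for the last 3 of these. Genes shared with GSK2830371 alone were 101 higher and 84 lower without a filter, 116 and 101 with the block, and 13 to 66 and 7 to 59 over left-out libraries. In K1, higher calls were 108 with DESeq2 and 87 to 195 over left-out libraries, lower calls 140 to 252, and genes shared with K1 43 to 80 and 59 to 114. Genes with a lower fold change in TPC1 than in K1 numbered 267 to 521 over left-out libraries and 556 with library size alone. Of 161 called genes named by the rule 120 kept their call in all 17 settings and 0 reversed. Genes printed outside the rule are not in this count, so a call given for them without such fits is not thereby stable. Of 1428 list counts under these settings 1321 stayed within 1.5 times.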
